A study of Tupaia belangeri with 6 samples.

Results

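The nuclear-encoded oxidative phosphorylation genes were examined across hippocampal cell classes and between tree shrews (TSs) with Alzheimer's-like pathology (ALP) and control TSs. Members were taken by gene symbol alone, as every feature named as a numbered NDUFA, NDUFB, NDUFC, NDUFS or NDUFV subunit of complex I, as SDHA to SDHD of complex II, or as a UQCR, COX4 to COX8 or ATP5 subunit of complexes III, IV and V. The rule itself uses no measured value, although the set was proposed with earlier results of these data known. The rule gave 80 of the 83605 features in the annotation. The start of the gene symbol alone placed 35 in complex I and 4 in complex II. It placed 8 in complex III, 16 in complex IV and 17 in complex V.

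Oxidative phosphorylation takes place in the inner mitochondrial membrane. Complexes I and II pass electrons from NADH and succinate to ubiquinone, complex III hands them to cytochrome c, complex IV reduces oxygen, and complex V, the ATP synthase, makes ATP from the proton gradient that complexes I, III and IV build. Most subunits are encoded in the nucleus and are imported as proteins, whereas a small core of complexes I, III, IV and V is encoded by mitochondrial DNA. In the brain this pathway supplies most of the ATP used for ion pumping and synaptic transmission. In a preparation of nuclei the counts of these genes come mainly from nuclear transcripts and from cytoplasmic RNA carried along with the nuclei.

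Single-nucleus RNA-seq was carried out on the hippocampus of Tupaia belangeri, with 3 ALP libraries, titled AD, and 3 control libraries, titled Normal. Each library came from 1 animal. All animals were naturally aged laboratory TSs with no transgene and no drug. The ALP animals were aged TSs with cognitive deficits in a pipeline maze, the controls were age-matched TSs without such deficits, and the sex of each animal is not given in the sources used here. ALP was therefore assigned by behavior in aging animals, and the comparison is between 2 sets of aged animals rather than between young and old. Tissue was flash-frozen, nuclei were released by Dounce homogenization, and 3′ libraries with unique molecular identifiers (UMIs) were made, so that a transcript is counted once whatever its length.

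The libraries held 3011 to 8785 barcodes and 19182981 to 35898940 UMIs, and 28234 nuclei were kept. Control 2 stood apart, with 1614 kept nuclei against 3927 to 7023 in the other 5 libraries, and with 42 Endo-like, 45 Micro-like and 63 Gran-like nuclei. Before the filters on nuclei it held 3011 barcodes with a median of 5181 UMIs, against medians of 1747 to 2492 in the other 5. The filters, which include an upper limit on genes, thus removed barcodes unevenly between libraries. No pair of libraries shared more than 0.465% of the barcodes of the smaller library. Nuclei were clustered without the members and named from markers as 8 classes. These were Endo-like (endothelial with mural markers, 500 nuclei), Astro-like (astrocytes, 3234), Micro-like (microglia, 1613), Oligo-like (oligodendrocytes, 8530), OPC-like (oligodendrocyte progenitor cells, 2719), Gran-like (dentate granule neurons, 2763), Pyra-like (pyramidal neurons, 2869) and InN-like (inhibitory neurons, 2438). The Endo-like cluster also carried the mural markers PDGFRB, RGS5, NOTCH3, ABCC9, COL1A2 and DCN, so endothelial and mural cells were not told apart in it. Among the markers of each class, 8 of 8 Astro, 7 of 8 Endo, 8 of 8 Micro, 6 of 7 Oligo, 7 of 8 OPC, 8 of 9 Pyra, 6 of 9 InN and 4 of 7 Gran markers were detected most often in their own class. The defining markers GAD2 and SLC32A1 of inhibitory neurons and MOBP of oligodendrocytes had no UMI in any class, and the granule neuron markers C1QL2, DSP and TDO2 were detected more often in another class, so the names of InN-like, Oligo-like and Gran-like nuclei rest on fewer markers. Among counted markers, MBP was found in only 0.07% and MAG in 0.81% of Oligo-like nuclei. TBR1 was nearly tied, in 17.0% of Pyra-like and 16.8% of Gran-like nuclei. ADARB2 was found in 59.1% of InN-like and 82.4% of OPC-like nuclei, and RORB in 4.15% of Pyra-like and 62.5% of Astro-like nuclei. PECAM1 was found in 2.4% of Endo-like and 8.47% of Gran-like nuclei. The Gran-like cluster of 1830 nuclei also carried the Endo markers PECAM1, EMCN and ADGRL4. A Micro-like cluster of 182 nuclei carried these Endo markers and the Gran markers PROX1, SEMA5A, CALB1 and RFX3 beside its Micro markers. Its median was 3681.5 UMIs, against 1038 in the Micro-like cluster of 1431 nuclei. Micro-like nuclei may thus include nuclei mixed with granule neurons, and the part of this cluster in the Micro-like levels was not tested. A further 2968 nuclei of low depth stayed without a class name. Of these, 1241 sat in 2 clusters with OLFM1 among their 10 leading genes, here called OLFM1-led. OLFM1 came first in the cluster of 820 nuclei, and the member ATP5PF in that of 421. Both clusters carried markers of several classes. Clusters named from ependymal (186 nuclei) or mural markers (105 nuclei) were not made into classes, nor were small clusters left unnamed. They count only in all kept nuclei.

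The members were measured unevenly. Of the 80 genes, 24 had no UMI in any barcode, among them SDHA, the flavoprotein of complex II, COX5A, COX6B1, COX7C and COX8A of complex IV, UQCRC2 of complex III, NDUFV2, a core subunit of complex I, and ATP5F1C, ATP5MC1 and ATP5MC2 of the ATP synthase. The other members at 0 were ATP5F1E, ATP5MF, ATP5MG, ATP5PB, ATP5PD, COX7B, COX7B2, NDUFA1, NDUFA5, NDUFB9, NDUFC1, NDUFC2, NDUFS5 and UQCRQ. These are subunits that respiring cells generally need, so it is stated here only that they are listed at 0. The annotation also lists 88 features named as a member's symbol followed by li and a number, here called copies. For 13 of the 24 members at 0 a copy held UMIs.

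The copies COX6B1li6 (8895 UMIs over all barcodes), SDHAli1 (8501), COX5Ali2 (8161), ATP5PBli2 (7351), NDUFV2li1 (6779), ATP5MC2li1 (5811) ATP5MFli7 (5697) and NDUFB9li1 (5471) each had more UMIs than most members. In all, 21 members had more UMIs in their copies than under the plain symbol. COX6A1, for example, had 4 UMIs against 13631 in its copies, and NDUFA12 had 152 against 7194. Whether the UMIs of a copy belong to its member was not tested. Levels of single members and sums per complex are therefore those under the plain symbol alone. Sums per complex with the copies added were not computed. Only sums over all members are also given with the copies.

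Members held 278343 UMIs in all barcodes. In kept nuclei 26 members were at 0, 11 had fewer than 200 UMIs and 43 had at least 200, together 128256 UMIs. The 6 most abundant members took 35.6% of these. NDUFB10, an accessory subunit of the complex I membrane arm, had most (9690), followed by NDUFS7 (8762), an iron-sulfur core subunit of complex I close to the ubiquinone site, and COX4I1 (7618), the common isoform of cytochrome c oxidase subunit 4. Complex I took 61.8% of member UMIs, with 24 of its 35 members at 200 UMIs or more. Complex V followed with 15.1%, complex IV with 11.8%, complex III with 6.44% and complex II with 4.83%. These shares depend on which subunits the annotation resolved, since 6 of the 16 complex IV members and 8 of the 17 complex V members were at 0 under the plain symbol.

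The summed member level, as UMIs per 1000000 UMIs of a class and library (CPM), was highest in Endo-like nuclei among the 8 named classes and several times lower in the others. It was 6547 ± 1594 in Endo-like nuclei (SD, n = 6 libraries), 2248 ± 269 in Astro-like, 2056 ± 141 in Micro-like, 1919 ± 232 in InN-like, 1710 ± 85.6 in Oligo-like, 1644 ± 146 in OPC-like, 1631 ± 197 in Pyra-like and 1557 ± 159 in Gran-like nuclei. Endo-like nuclei were above the other 7 classes in 6 of 6 libraries. Astro-like nuclei were above InN-like nuclei in 6 of 6 libraries and above Micro-like nuclei in 5 of 6. OPC-like nuclei were above Gran-like nuclei in 6 of 6 libraries. The other orders among Oligo-like, OPC-like, Pyra-like and Gran-like nuclei changed between libraries, and the means of these 4 classes lay within their spread. Classes of 1 library share its preparation, so these orders are given as a description with no test.

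**Figure D1:**
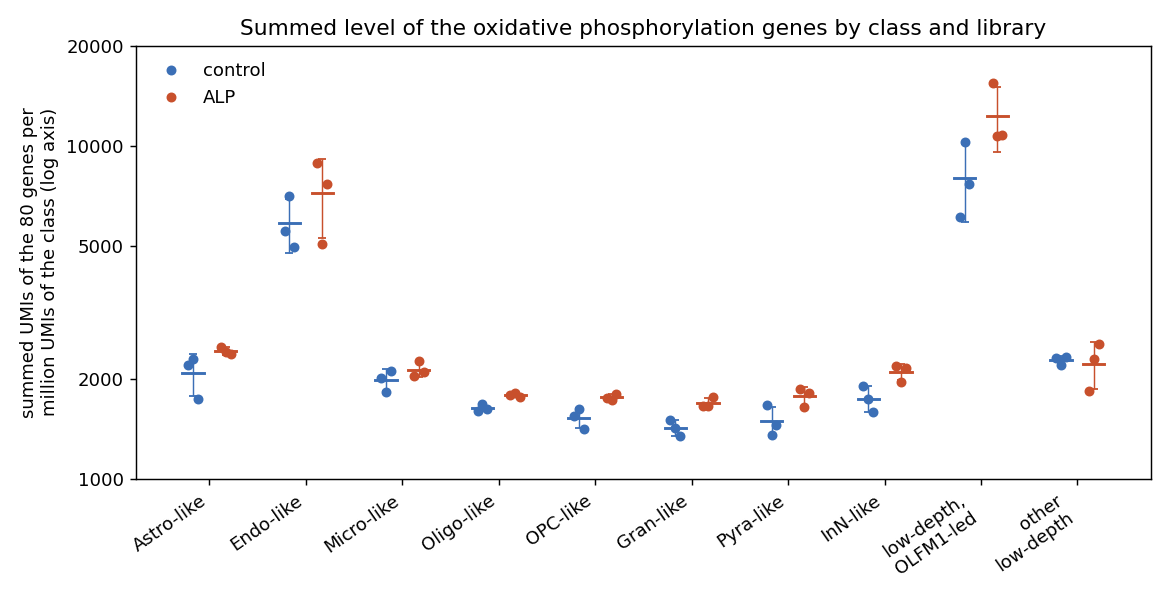
Summed level of the 80 members per class, with both kinds of low-depth nuclei at the right (x axis), in CPM on a log axis (y axis), 1 point per library, control in blue and ALP in red, with the mean (bar) and SD of 3 libraries. Endo-like nuclei lie above the other named classes in every library, and ALP points lie above control points in Astro-like, Oligo-like, OPC-like, Gran-like and InN-like nuclei.

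The summed level of the cytosolic ribosomal protein genes was also highest in Endo-like nuclei, at 8737 CPM on average. It was 638 to 1024 CPM in the other named classes, with InN-like nuclei lowest. Mitochondrially encoded transcripts made up 0.29% of UMIs in Endo-like nuclei and 0.0184% to 0.0450% in the others. Their part in the result was not tested.

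Gene by gene, 34 of the 43 members with at least 200 UMIs were highest in Endo-like nuclei, 5 in Micro-like, 2 in Oligo-like, 1 in Astro-like and 1 in OPC-like nuclei. With Endo-like nuclei left aside, 24 were highest in Astro-like nuclei, 11 in Micro-like, 3 in Oligo-like, 2 in InN-like, 2 in OPC-like and 1 in Pyra-like nuclei. No member with at least 200 UMIs was highest in Gran-like nuclei on either count.

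**Figure D2:**
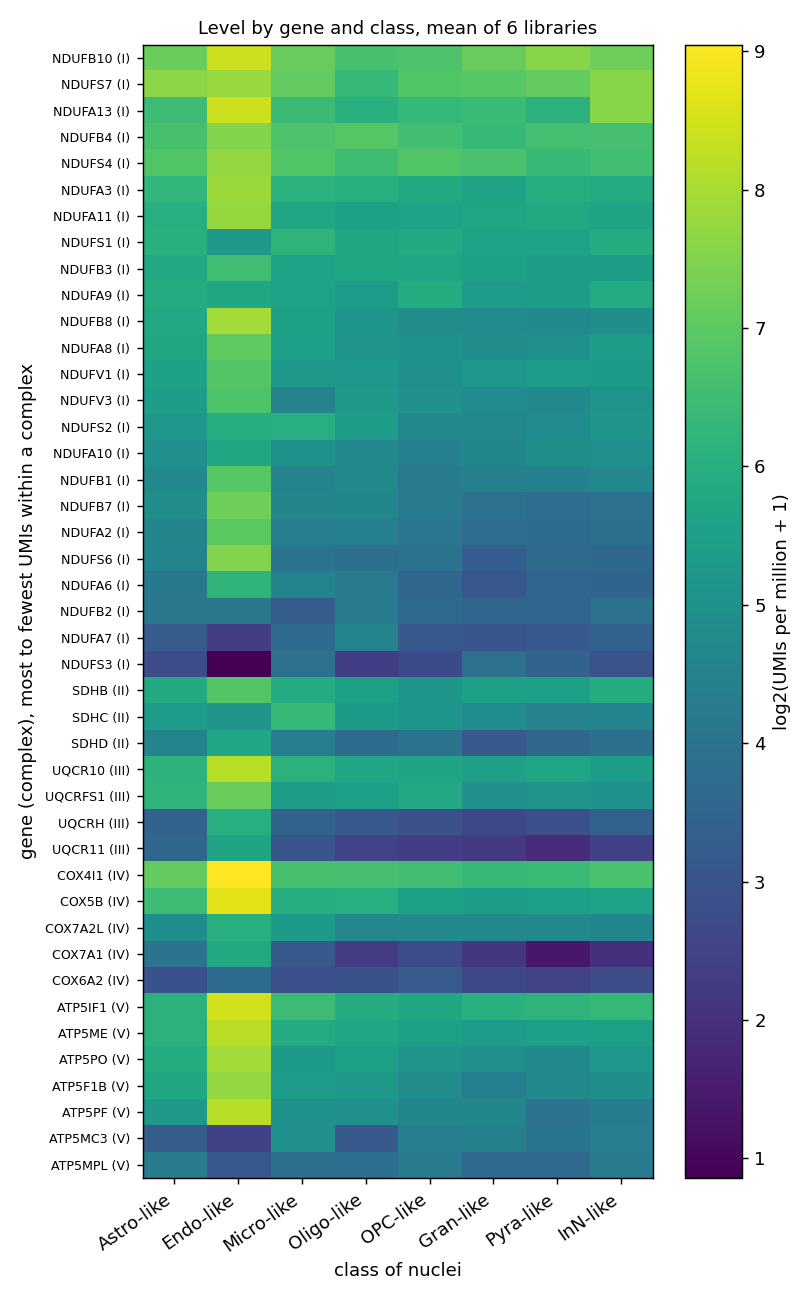
Mean level of each member with at least 200 UMIs (rows, grouped by complex) in the 8 named classes (columns), as log2 of mean CPM over 6 libraries plus 1. The Endo-like column is the brightest for most genes, while NDUFS3, NDUFA7, ATP5MC3 and ATP5MPL are at their lowest there.

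The isoforms of complex IV differed unevenly between classes. COX7A1, known as the heart and muscle isoform of subunit 7A, was at 55.5 ± 39.7 CPM in Endo-like nuclei (42 UMIs) and at 1.61 ± 0.98 CPM in Pyra-like nuclei (22 UMIs), a ratio of 34.4. Its wide SD and small counts leave that ratio imprecise. COX4I1 was found in every class, from 79.4 ± 21.3 CPM in Gran-like to 528 ± 179 CPM in Endo-like nuclei. Its paired isoform COX4I2, known from lung and from low oxygen, had 83 UMIs in all barcodes. COX6A2, the muscle isoform of subunit 6A, ranged only from 4.85 ± 1.66 CPM in Pyra-like to 12.1 ± 15.4 CPM in Endo-like nuclei and was higher in the latter in 3 of 6 libraries. COX8C had 1 UMI in all, COX7B2 had none, and COX7A2 and COX6B2 were not found by their symbols, so those pairs could not be compared. COX5B, a subunit facing the matrix, went from 41.9 ± 6.69 CPM in Gran-like to 405 ± 169 CPM in Endo-like nuclei.

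Within complex I, NDUFS6, a zinc-binding accessory subunit, was at 179 ± 117 CPM in Endo-like and 8.89 ± 5.34 CPM in Gran-like nuclei. NDUFS3, a core subunit, went the other way, with 14.1 ± 5.22 CPM in Micro-like nuclei and 0.81 ± 1.99 CPM in Endo-like nuclei, where it had 2 UMIs. At the other end, NDUFA9, an accessory subunit near the ubiquinone site, differed by a ratio of only 1.49 between its highest class, OPC-like (59.6 ± 19.5 CPM), and its lowest, Oligo-like (39.9 ± 14.1 CPM). The subunits of 1 complex were thus not detected in a fixed proportion across classes.

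Complex II showed a similar range. SDHC, a membrane anchor subunit, was highest in Micro-like nuclei (80.6 ± 22.7 CPM) and lowest in Pyra-like nuclei (21.4 ± 3.62 CPM). SDHD, the other anchor, was at 50.6 ± 21.3 CPM in Endo-like and 7.84 ± 2.87 CPM in Gran-like nuclei. SDHB, the iron-sulfur subunit, was at 115 ± 37.6 CPM in Endo-like and 35.5 ± 11.4 CPM in OPC-like nuclei. For all 3 genes the highest class was above the lowest in 6 of 6 libraries.

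In complex III, UQCR11 was at 49.0 ± 17.5 CPM in Endo-like and 2.69 ± 1.64 CPM in Pyra-like nuclei, and UQCRH, the hinge protein, at 64.1 ± 81.2 and, in Gran-like nuclei, 5.25 ± 3.73 CPM. UQCRFS1, the Rieske iron-sulfur protein, spanned a smaller ratio of 4.54. UQCR10, a small membrane subunit and the most abundant member of complex III, was lowest in InN-like nuclei at 42.7 ± 7.09 CPM.

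In complex V the peripheral stalk subunit ATP5PF was at 289 ± 138 CPM in Endo-like and 14.6 ± 3.30 CPM in Pyra-like nuclei, and ATP5F1B, the catalytic beta subunit, at 210 ± 87.7 CPM in Endo-like and 19.9 ± 3.38 CPM in Gran-like nuclei. ATP5IF1, the inhibitor that blocks reverse hydrolysis of ATP, and ATP5ME, a membrane subunit, were the most abundant members of this complex, with 5304 and 3921 UMIs. ATP5MC3, which encodes the c subunit of the proton-carrying ring, was the only 1 of the 3 c-subunit genes with UMIs under its plain symbol. It was highest in Micro-like nuclei at 31.3 ± 11.4 CPM and lowest in Endo-like nuclei at 4.55 ± 5.62 CPM, from 5 UMIs.

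The OLFM1-led nuclei carried the highest summed member level among the 8 named classes and the low-depth nuclei, 10180 ± 3211 CPM. They lay above every named class in 6 of 6 libraries. COX4I1 reached 896 ± 275 CPM there, COX5B 755 ± 259 CPM and ATP5IF1 675 ± 253 CPM. These clusters stayed unnamed because of low depth and because none of their leading genes was a marker of their candidate class. The members were left out of the clustering, but they were not left out of the leading genes. COX5B was among the leading genes of both clusters, and ATP5PF and NDUFS6 among those of the smaller. Leading genes were read from these same nuclei, so they add no separate support for the level. Members in these places could keep markers out of them, so the group was not set apart independently of the member level. Whether the clusters would have been named with members left out of the leading genes was not tested. The summed ribosomal protein level was 7490 CPM and mitochondrially encoded transcripts made up 0.697% of UMIs. The other low-depth nuclei, 1099 of 1727 from control 3, were at 2250 ± 235 CPM.

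Next, ALP TSs were compared with control TSs within each class. Only NDUFS7 passed the threshold, in Astro-like and Oligo-like nuclei, where it was higher in ALP. The test was edgeR's quasi-likelihood test on UMIs summed per library, with Benjamini-Hochberg adjustment over all features of the class, and a gene was called at an adjusted p below 0.05 with an absolute log2 fold change above 0.25. Values below are CPM on effective library sizes from the trimmed mean of M-values (TMM), and a log2 value is that of ALP over control.

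In Astro-like nuclei NDUFS7 was at 125, 143 and 97.4 TMM-scaled CPM in controls 1 to 3 and at 321, 247 and 329 in ALP 1 to 3. The groups did not overlap, with log2 1.30 ± 0.20 (SE, n = 3 per group, adjusted p = 0.0387). In Oligo-like nuclei it was at 58.7, 46.0 and 60.9 in controls and 106, 102 and 115 in ALP, again without overlap, with log2 0.91 ± 0.18 (adjusted p = 0.0202 in edgeR's test). NDUFS7 was thus the 1 member called of 39 tested in Astro-like nuclei, where 0.158% of all features were called, and the 1 of 41 in Oligo-like nuclei, where 4.88% were.

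The call depends on single libraries. Without ALP 1, ALP 3 or control 3, the Astro-like adjusted p became 0.202, 0.281 and 0.103 in edgeR's test. The Oligo-like adjusted p became 0.0908, 0.145 and 0.0891. The share of all features called fell as well, to 0.0176%, 0.0177% and 0.0199% in Astro-like nuclei. In Oligo-like nuclei it fell to 0.00778%, 0.0158% and 0.0742%. The log2 of NDUFS7 stayed between 1.15 and 1.44 and between 0.86 and 0.97 over all alternatives.

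The same gene was higher in every ALP library than in every control library in 7 of the 8 named classes, all but Endo-like. In InN-like nuclei it was at 133, 168 and 128 TMM-scaled CPM in controls and 275, 248 and 247 in ALP (log2 0.85 ± 0.14, adjusted p = 0.0519, edgeR). In Pyra-like nuclei it was at 110, 102 and 62.5 in controls and 218, 179 and 169 in ALP (log2 1.04 ± 0.23, adjusted p = 0.105, edgeR). Adjusted p was 0.0723 in Gran-like, 0.117 in OPC-like and 0.123 in Micro-like nuclei, with log2 0.70, 0.64 and 0.81. In Endo-like nuclei log2 was 0.37 with an adjusted p of 0.962. These classes come from the same 6 animals and are not independent of each other. A difference in this effect between classes was not tested.

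**Figure D3:**
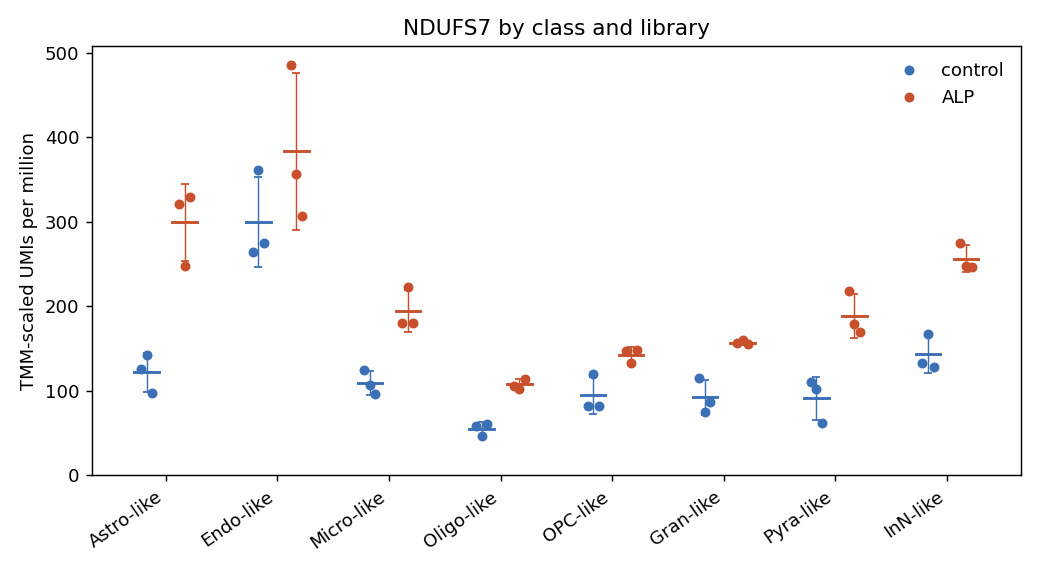
NDUFS7 in TMM-scaled CPM (y axis) by class (x axis), 1 point per library, control in blue and ALP in red, with the mean (bar) and SD of 3 libraries. All 3 ALP points lie above all 3 control points in every class except Endo-like, and the gene passed the threshold in Astro-like and Oligo-like nuclei.

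Among the other complex I members none was called. NDUFB10 had the largest difference in Pyra-like nuclei, where controls were at 124, 103 and 109 TMM-scaled CPM and ALP libraries at 323, 175 and 388. The groups did not overlap, but ALP 2 lay closer to the controls than to the other 2 ALP libraries (log2 1.39 ± 0.28, adjusted p = 0.105, edgeR). In Gran-like nuclei NDUFB10 had log2 0.81 with adjusted p = 0.0750, and its log2 was above 0 in 8 of 8 classes. NDUFA9 was above 0 in 7 of 7 classes tested and had an unadjusted p below 0.05 in 5 of them, as in Astro-like nuclei (50.1, 53.6 and 40.0 in controls, 87.6, 73.1 and 69.4 in ALP, log2 0.68 ± 0.21, adjusted p = 0.144, edgeR). NDUFB8, an accessory subunit of the membrane arm, did not overlap in InN-like nuclei, with 23.1, 21.5 and 20.6 TMM-scaled CPM in controls and 35.0, 37.3 and 46.5 in ALP (log2 0.86 ± 0.21, adjusted p = 0.0722, edgeR). NDUFV1, the core subunit that binds NADH, was above 0 in 8 of 8 classes, with log2 1.32 in Micro-like (adjusted p = 0.201) and 1.23 in Endo-like nuclei (adjusted p = 0.834). NDUFA13, an accessory subunit also known as GRIM19, and NDUFS4, an accessory subunit needed for a stable complex, had smaller values, with medians over classes of 0.26 and 0.23.

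Not every complex I subunit had a positive value. NDUFA7 was below 0 in 4 of 4 classes tested, with a lowest log2 of -1.09. NDUFS1, the largest iron-sulfur core subunit, was lower in every ALP library than in every control library in Micro-like nuclei (94.4, 95.5 and 91.0 TMM-scaled CPM in controls, 62.6, 65.8 and 69.7 in ALP), with log2 -0.49 ± 0.25 and adjusted p = 0.391 in edgeR's test. NDUFS3 was at -0.03 to -0.13 in 3 classes.

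Summed over its members in plain CPM, complex I was higher in all 3 ALP libraries than in all 3 controls in 7 of 8 named classes, with a ratio of ALP over control from 1.11 in Oligo-like to 1.29 in Pyra-like nuclei. The Endo-like groups overlapped at a ratio of 1.22. In InN-like nuclei, for example, complex I summed to 1278, 1172 and 1046 CPM in controls and 1483, 1370 and 1481 CPM in ALP. NDUFS7 and NDUFB10 are part of these sums. In Pyra-like nuclei their means were 91.4 and 112 TMM-scaled CPM in control and 189 and 295 in ALP. The Pyra-like complex I sum was 952 plain CPM in control and 1233 in ALP on average. NDUFS7 and NDUFB10 thus hold a large part of its rise, although the scales differ. The Pyra-like sum over all members, 1490 CPM in control and 1771 in ALP on average, holds these genes as well. Sums without these genes were not computed, so it is not known in which classes the groups would stay apart without them. No test was run on the sums.

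**Figure D4:**
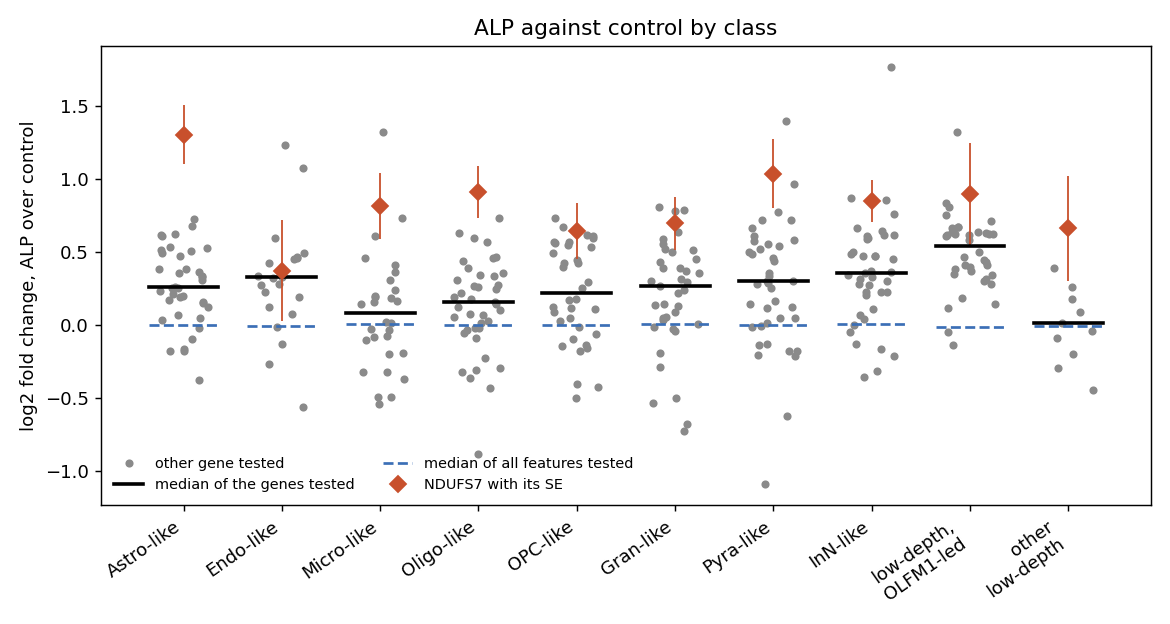
Log2 fold change of ALP over control (y axis) for the members tested in each named class and in the low-depth nuclei (x axis), from edgeR's quasi-likelihood fit, with 1 gray point per member, a red diamond with its SE for NDUFS7, a black bar for the median of the members and a dashed blue bar for the median of all features. Members lie mostly above 0, NDUFS7 passed the threshold in Astro-like and Oligo-like nuclei, and the median of all features lies near 0.

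In complex II, SDHB had the opposite sign to most complex I members. It was below 0 in 7 of 7 classes tested. In Gran-like nuclei it was at 45.5, 84.6 and 45.9 TMM-scaled CPM in controls and 32.5, 37.9 and 27.8 in ALP (log2 -0.67 ± 0.28, unadjusted p = 0.0323, adjusted p = 0.224, edgeR), and this was the only pair of member and named class with an unadjusted p below 0.05 in the lower direction, where 10.6% of all Gran-like features lay. In Micro-like nuclei SDHB was at 73.4, 59.7 and 99.2 in controls and 50.9, 57.8 and 57.0 in ALP (log2 -0.54, adjusted p = 0.416, edgeR). SDHC was above 0 in 6 of 7 classes, up to 0.59 in OPC-like nuclei. The complex II sum was lower in all ALP than in all control libraries in Micro-like (ratio 0.810), Gran-like (0.695) and InN-like nuclei (0.872) and overlapped in the other 5 classes.

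In complex III, UQCRFS1 had its clearest difference in Astro-like nuclei, with 68.3, 59.1 and 51.8 TMM-scaled CPM in controls and 96.6, 90.8 and 89.8 in ALP (log2 0.63 ± 0.20, adjusted p = 0.140, edgeR). UQCRH had the highest log2 of any member in InN-like nuclei (1.76 ± 0.68, adjusted p = 0.189, edgeR), from 5 to 37 UMIs per library. Its controls were at 7.29, 3.83 and 2.51 TMM-scaled CPM and ALP libraries at 20.5, 3.39 and 24.1, so that ALP 2 lay among the controls. UQCR10 lay between -0.26 and 0.26 over 8 classes. Among the named classes the complex III sum was higher in all ALP libraries in Astro-like nuclei alone (ratio 1.23).

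In complex IV, COX4I1 was above 0 in 8 of 8 classes and without overlap between the groups in 5. In InN-like nuclei it was at 70.4, 80.5 and 75.7 TMM-scaled CPM in controls and 166, 96.9 and 151 in ALP (log2 0.87 ± 0.20, adjusted p = 0.0620, edgeR). In Pyra-like nuclei it was at 63.5, 68.8 and 62.5 in controls and 115, 93.8 and 123 in ALP (log2 0.77, adjusted p = 0.113, edgeR). COX5B was at log2 0.62 in Astro-like nuclei (adjusted p = 0.156) and ranged down to -0.32 across classes. The complex IV sum was higher in all ALP libraries in Astro-like (ratio 1.26), Oligo-like (1.19), Gran-like (1.29) and InN-like nuclei (1.40).

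Complex V members had mixed signs. ATP5F1B had log2 -0.21 to 0.39 and ATP5IF1 -0.04 to 0.49. ATP5PO, the stalk subunit also known as OSCP, was above 0 in 8 of 8 classes, between 0.14 and 0.56. ATP5MC3 was below 0 in 6 of 7 classes. Among the named classes the complex V sum was higher in all ALP libraries only in OPC-like nuclei (ratio 1.13).

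Taken over all members, the summed level was higher in ALP in each of the 8 named classes, with ratios of 1.23 in Endo-like, 1.21 in InN-like, 1.19 in Gran-like, 1.19 in Pyra-like, 1.17 in Astro-like, 1.15 in OPC-like, 1.09 in Oligo-like and 1.07 in Micro-like nuclei. In Oligo-like nuclei controls were at 1603, 1681 and 1626 CPM and ALP libraries at 1785, 1806 and 1759 CPM. In Gran-like nuclei they were at 1500, 1421 and 1348 CPM and 1659, 1655 and 1760 CPM. In Astro-like nuclei they were at 2204, 2285 and 1737 CPM and 2489, 2402 and 2372 CPM. The groups did not overlap in these 3 classes or in OPC-like and InN-like nuclei, and they overlapped in Pyra-like, Endo-like and Micro-like nuclei. Over all kept nuclei together the ratio was 1.06 and the groups overlapped.

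The median log2 of the members was 0.36 in InN-like, 0.33 in Endo-like, 0.30 in Pyra-like, 0.26 in Gran-like, 0.26 in Astro-like, 0.22 in OPC-like, 0.15 in Oligo-like and 0.08 in Micro-like nuclei, beside -0.01 to 0.01 over all features tested. TMM scaling itself places the features as a whole near 0, so the member values are relative to the other features. Of 41 members tested in InN-like nuclei 35 were above 0 beside 50.7% of all features, of 39 in Astro-like nuclei 33 beside 50.1%, and of 30 in Micro-like nuclei 17 beside 50.5%. No member was called in InN-like, Pyra-like or Endo-like nuclei, where 0% of features were called, nor in OPC-like (1.58%), Gran-like (1.87%) or Micro-like nuclei (0.509%), nor among 44 members in all kept nuclei together (0%). DESeq2 called NDUFS7 and COX4I1 in InN-like nuclei, beside 3.91% of all features. It called NDUFS7 and NDUFB10 in Pyra-like nuclei and in all nuclei, beside 2.27% and 7.65% of features. It called 0 members in Gran-like (2.09% of features), OPC-like (1.71%), Micro-like (0.386%) and Endo-like nuclei (0.065%). At an unadjusted p below 0.05 in edgeR's test, members that were higher in ALP numbered 13 of 41 in InN-like nuclei against 8.2% of features, 7 of 39 in Astro-like against 8.16%, 6 of 39 in Gran-like against 7.48%, 6 of 36 in OPC-like against 7%, 6 of 41 in Pyra-like against 7.76%, 4 of 41 in Oligo-like against 10.4%, 3 of 30 in Micro-like against 7.28% and 2 of 22 in Endo-like against 3.31%. The Oligo-like share was near that of all features and the InN-like share was the farthest above it. Members higher in all 3 ALP than in all 3 control libraries numbered 14 of 41 in InN-like nuclei against 11.3% of features, 9 of 39 in Gran-like against 11%, 9 of 36 in OPC-like against 9.24%, 8 of 41 in Oligo-like against 12.4%, 8 of 41 in Pyra-like against 10.9%, 6 of 39 in Astro-like against 11.6%, 2 of 22 in Endo-like against 4.29% and 1 of 30 in Micro-like against 9.08%. In Micro-like nuclei 2 of 30 members (6.67%) were lower in all 3 ALP libraries, near the 7.9% of features. In the other classes lower members were rarer than higher ones. There was 1 in Oligo-like (10.8% of features), 1 in OPC-like (9.36%) and 1 in Gran-like nuclei (11.2%), and none in the other 4 classes.

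Several other quantities moved with the groups. Median UMIs per nucleus were lower in every ALP library than in every control library in all 5 glial and vascular classes and in Gran-like nuclei, with ratios of 0.682 to 0.808, and higher in Pyra-like nuclei, with a ratio of 1.40. The most abundant feature, LINC-FRMD8-1, was without overlap between the groups in 2 classes, Pyra-like and Gran-like, and took 28.8% of UMIs in ALP and 16.4% in control Pyra-like nuclei, and 27.6% and 19.2% in InN-like nuclei. The ribosomal protein genes tested, 11 to 15 of 79 per named class, had medians of 0.08 to 0.51, on the same side as the members. Their part in the result was not tested. With LINC-FRMD8-1 left out of the total, an alternative chosen after the data were seen, the Pyra-like ratio became 1.41 and the InN-like ratio 1.35. The Pyra-like groups then no longer overlapped (at most 1956 CPM in controls, at least 2145 CPM in ALP), whereas the Oligo-like groups did (2288 and 2286 CPM).

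The low-depth nuclei gave the largest ratios. In the OLFM1-led nuclei the summed member level was 6122, 10320 and 7666 CPM in controls and 15481, 10724 and 10766 CPM in ALP. Every ALP library was above every control library, but ALP 2 and ALP 3 lay close to control 2. UQCRH was at 60.4, 65.3 and 67.2 TMM-scaled CPM in controls and 248, 131 and 120 in ALP (log2 1.32 ± 0.37, adjusted p = 0.401, edgeR), from 12 to 34 UMIs per library. No member of 38 was called (0.0616% of features), 5 had an unadjusted p below 0.05 and a higher level in ALP (3.86% of features), and the median log2 was 0.54. Mitochondrially encoded transcripts took 0.584% of UMIs in control and 0.810% in ALP OLFM1-led nuclei, with overlap, and their part in the result was not tested. The ribosomal protein genes had a larger median log2 of 0.70 and a ratio of 1.59 between the groups, and their part in the result was not tested. Analysing these clusters alone was chosen after the data were seen.

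Over all low-depth nuclei, where 0.0331% of features were called, no member was called, and without control 2 the count was 17 of 38 beside 5.02% of all features, among them UQCRH (log2 1.67, adjusted p = 0.0169, edgeR), NDUFB8 (1.38, adjusted p = 0.0214) and NDUFS7 (1.24, adjusted p = 0.0230). The median log2 of the members was 0.63 there, and 0.20 when only nuclei with at most 1% mitochondrial UMIs were kept. The mitochondrial share was 0.332% in control and 0.539% in ALP. The mix of the 2 kinds of low-depth nuclei also differed between libraries. OLFM1-led nuclei were 217 of 463, 184 of 260 and 333 of 1432 in controls 1 to 3. They were 130 of 250, 157 of 297 and 220 of 266 in ALP 1 to 3. The part of this mix in the result was not tested. With no upper limit on genes per nucleus NDUFS7 was at 0.00. The other low-depth nuclei had a ratio of 0.974 and a median log2 of 0.02, and 0 of 11 members were called (0% of features).

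The copies did not always have the sign of the plain symbols. NDUFB8 and its copy NDUFB8li1 had log2 values of opposite sign in Gran-like and Pyra-like nuclei. In Gran-like nuclei NDUFB8li1 was at 322, 189 and 356 plain CPM in controls and 133, 149 and 119 CPM in ALP. It fell by 1.10 ± 0.21 on the log2 scale (adjusted p = 0.0365, edgeR) and was called. NDUFB8 itself was at 23.1, 18.8 and 18.3 TMM-scaled CPM in controls and 31.5, 36.5 and 40.0 in ALP there (log2 0.79 ± 0.26, adjusted p = 0.134, edgeR). In Pyra-like nuclei the copy was at 164, 178 and 213 plain CPM in controls and 72.5, 92.4 and 53.2 CPM in ALP (log2 -1.13 ± 0.21, adjusted p = 0.105, edgeR). There NDUFB8 was at 27.4, 16.4 and 27.1 TMM-scaled CPM in controls and 26.9, 27.6 and 35.7 in ALP, with overlap (log2 0.30 ± 0.27, adjusted p = 0.608, edgeR). In the other named classes the mean of NDUFB8li1 was at most 41.8 CPM. How reads that match both features were counted was not tested. Whether the copy is a gene, a pseudogene or a fragment is not given in the sources used here.

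**Figure D5:**
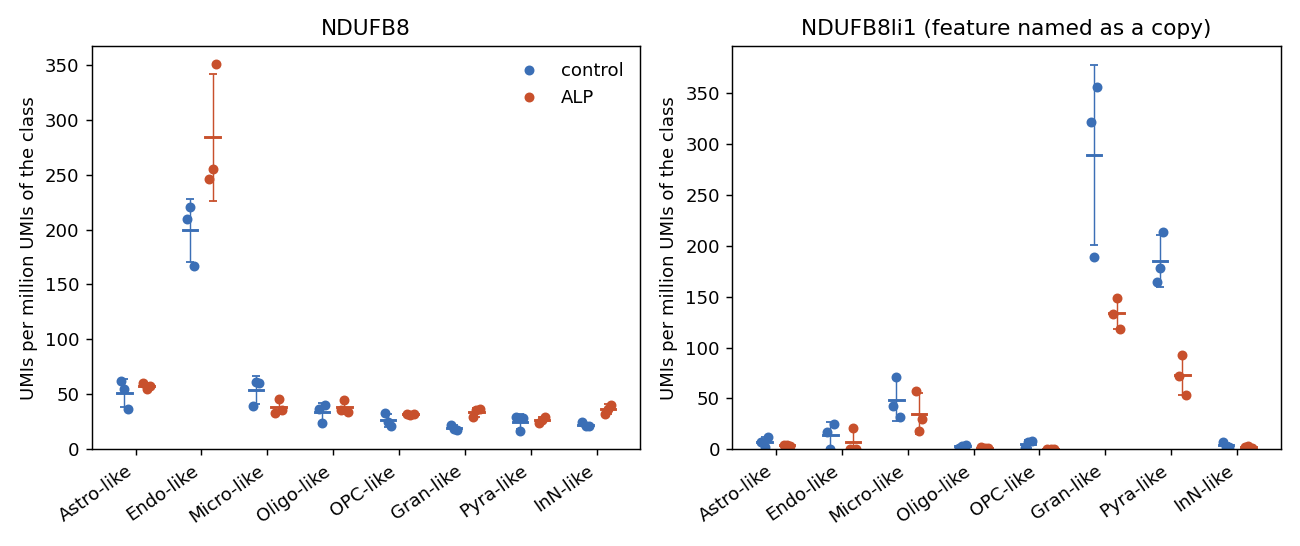
NDUFB8 and its copy NDUFB8li1 in plain CPM (y axis) by class (x axis), 1 point per library, control in blue and ALP in red, with the mean (bar) and SD of 3 libraries. NDUFB8li1 lies far above the other classes in Gran-like and Pyra-like nuclei, where every ALP point is below every control point.

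With all copies added to the members, the ratio of ALP over control became 1.06 in Gran-like and 1.03 in Pyra-like nuclei, where the copies alone summed to 892 CPM in control and 767 CPM in ALP Gran-like nuclei and to 825 and 611 CPM in Pyra-like nuclei. The Gran-like groups then overlapped (at most 2390 CPM in controls, at least 2374 CPM in ALP). The ratio was 1.24 in Endo-like, 1.17 in InN-like, 1.13 in Astro-like, 1.12 in OPC-like, 1.08 in Oligo-like and 1.03 in Micro-like nuclei. Over all kept nuclei together it was 1.01. One other copy was called, ATP5F1Dli1, which rose in Oligo-like nuclei (log2 1.17, adjusted p = 0.0498, edgeR), whereas its plain symbol had 9 UMIs in all barcodes.

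Genes that work with these subunits were read from lists by symbol. Of 46 assembly factors, 32 were tested in Oligo-like nuclei, and 2 rose and 1 fell, whereas 0 were called in the other named classes, in which 2 to 30 were tested. SURF1, a complex IV assembly factor, was at 24.2, 14.2 and 22.3 TMM-scaled CPM in controls and 40.9, 42.6 and 44.1 in ALP (log2 0.94 ± 0.23, adjusted p = 0.0441, edgeR). NDUFAF3, a complex I assembly factor, was at 35.5, 38.9 and 41.6 in controls and 114, 64.4 and 105 in ALP (log2 1.29 ± 0.24, adjusted p = 0.0184, edgeR). COA7, another complex IV factor, was at 44.7, 38.9 and 68.1 in controls and 26.6, 26.4 and 23.3 in ALP (log2 -1.06 ± 0.25, adjusted p = 0.0376, edgeR). In none of these genes did the groups overlap, and 4.88% of all features were called in Oligo-like nuclei. The median log2 of the assembly factors was above 0 in the named classes, as that of the members was. It went from 0.06 in Endo-like nuclei, from 2 genes, to 0.26 in InN-like nuclei. Of 14 tricarboxylic acid cycle genes, IDH3G, a subunit of NAD-dependent isocitrate dehydrogenase, was the only one called, and it rose in Oligo-like and OPC-like nuclei. Its log2 was 1.27 ± 0.24 in Oligo-like (adjusted p = 0.0184, edgeR) and 1.33 ± 0.26 in OPC-like nuclei (adjusted p = 0.0418). None of 14 regulators of nuclear-encoded respiratory genes was called, with 1 to 11 tested per class and medians from -0.66 in Endo-like, from 1 gene, to 0.17 in OPC-like nuclei. Of NDUFAB1, NDUFA4L2, CYC1 and CYCS, respiratory subunits and carriers whose symbols the rule does not match, 1 was tested in a named class, Endo-like, and was not called (log2 0.10). None of the ribosomal protein genes was called in any class.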

How the data were processed

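Single-nucleus libraries were made with 10x Genomics 3′ chemistry from 6 hippocampi. The authors deposited raw UMI counts per feature and barcode for each library, aligned to the TreeshrewDB genome. Cell Ranger is given as version 3.1.0 in the submitters' processing notes and as 6.1.2 in the matrix headers, and the genome build and the use of strand are not given in the sources used here. Groups were taken from the sample titles. No other columns were used.

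Nuclei were kept if they had 200 or more genes, below 2500 genes, and a mitochondrial share of UMIs of at most 5%. With scanpy 1.11.5, 2000 variable genes (members and copies left out), 30 principal components and 20 neighbours were used, with Leiden clustering at resolution 2. A cluster was named from at least 3 markers found in 3% of its nuclei or more and at 1.5 times the other nuclei. It stayed unnamed at 15% or more marked doublets, or where its median UMI count was under 0.6 of the library median and none of its 10 leading genes was a marker of its class. These naming thresholds were set after the clusters had been seen. Marked doublets were removed only as an alternative.

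Counts were summed over at least 10 nuclei per library and class. Features passing filterByExpr (minimum count 10) were tested with edgeR 4.0.16 in R 4.3.3, using TMM, the quasi-likelihood test without a replicate block, and Benjamini-Hochberg adjustment over all features tested. DESeq2 1.42.0, no filter, upper-quartile scaling, members summed with copies, other clusterings, other filters on nuclei and leaving out each library were alternatives. Replicate numbers are not said in the sources to pair the animals. Nothing in the sources says that nuclei of 1 animal were split, so n is 3 animals per group, for which an exact permutation test cannot go below p = 0.1. Plain CPM divides by all UMIs of a class and library, and counting error is largest in Endo-like nuclei and in control 2.

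The members and gene lists were chosen with earlier results of these data known. Named were members called in a class, the 3 with the smallest p per class, the 2 most abundant and the 2 with the largest class ratio per complex, paired isoforms and members at 0. NDUFS1, NDUFA7, ATP5PO, NDUFA13 and the copies were added after their values were seen. No sequences are printed because no sequence table was used here, and 72 of the 80 symbols were found in the RefSeq table of gene names. On simulated counts for Astro-like nuclei (10141 features), 26.1% of features changed by a log2 of 1 and 85.9% of those changed by 2 were called. For Oligo-like nuclei (11695 features) these were 25.3% and 86.0%, and for InN-like nuclei (11942 features) 26.4% and 85.1%. Features left unchanged in the simulation but called numbered 16 for Astro-like, 13 for Oligo-like and 4 for InN-like nuclei. In the measured Astro-like data 16 features were called in all. The Astro-like simulation tested 92 features changed by a log2 of 1 and 92 changed by 2. Calls of these move the cutoff of the Benjamini-Hochberg adjustment. The unchanged features called there can therefore not be set against the measured count.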

Additional observations from a re-analysis of the deposited data

How the results depend on the processing

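NDUFS7 had a log2 above 0 under every alternative in each class and group of nuclei where it was among the named genes. The 30 pairs of gene and class that were called or had the 3 smallest p-values kept their sign. These pairs were picked from the same libraries that the alternatives reuse, so their kept sign adds no separate support. Over all 289 pairs of member and named class, 197 kept their sign under every alternative in which they were tested. The count of called members changed more. With the replicate block it was 0 in Astro-like nuclei (adjusted p = 0.0863 for NDUFS7 in edgeR's test), beside 0.0592% of all features. It was 0 in Oligo-like nuclei as well (0.0513), beside 1.94% of features. The block changed no other call of a member. Samples of the same number did not deviate together (r from -0.11 to 0.06 over 12 pairs, against -0.07 to 0.09 over 24 pairs of other numbers). With 3 libraries per group this cannot settle whether the numbers pair animals or preparations. With DESeq2 2 members were called in InN-like (beside 3.91% of all features), 2 in Pyra-like (2.27%) and 2 in all nuclei (7.65%). With no filter on low counts 6 were called in InN-like (3.48% of features), 3 in Pyra-like (2.27%), 2 in Gran-like (2.07%) and 3 in all nuclei (6.16%). With no upper limit on genes 3 were called in Gran-like (5.14%) and 4 in InN-like nuclei (2.94%), and 1 was called in InN-like nuclei with 20 principal components (1.05%) and 1 with upper-quartile normalization (1.53%). With copies summed in, 2 were called in Oligo-like nuclei (4.89%), ATP5F1D and NDUFS7.

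Leaving out 1 library at a time gave 0 to 1 called members in Astro-like nuclei, beside 0.0176% to 2.22% of features. It gave 0 to 2 in Oligo-like (0.00778% to 8.16%), 0 to 1 in OPC-like (0% to 4.1%) and 0 to 1 in Gran-like nuclei (0% to 4.81%). It gave 0 to 2 in InN-like (0% to 3.89%) and 0 to 1 in Pyra-like nuclei (0% to 1.18%). The range was 0 to 17 in low-depth (0% to 5.02%) and 0 to 5 in all nuclei (0% to 9.2%). There 17 and 5 were the counts without control 2. The 2 in Oligo-like nuclei without ALP 2 (8.12% of features) were NDUFA7 and NDUFS7. The count was 1 without control 2 in OPC-like (NDUFS7, 4.1% of features), without control 1 in Gran-like (NDUFS7, 4.81%), and without ALP 2 in Pyra-like nuclei (NDUFB10, 0.164%). In InN-like nuclei it was 1 without ALP 2 (0.314%) or control 2 (3.59%) and 2 without control 1 (3.89%). The median log2 of the members stayed above 0 in every class under every alternative run, except in Endo-like nuclei with no filter on low counts (-0.06), but its size moved by more than 1.5 times without single libraries. It went from 0.26 to 0.41 without control 2 and 0.15 without control 3 in Astro-like nuclei, from 0.08 to 0.21 without ALP 1, 0.16 without control 3 and 0.03 without ALP 2 in Micro-like nuclei, from 0.15 to 0.24 without ALP 2 in Oligo-like nuclei, and from 0.30 to 0.18 without control 2 in Pyra-like nuclei. In Endo-like nuclei it ranged from 0.12 without ALP 3 to 0.51 without ALP 2, in low-depth nuclei from 0.36 without control 3 to 1.05 without control 2, and in all nuclei from 0.11 without control 1 to 0.37 without control 2.

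With copies added, the summed level was 3228 CPM in Astro-like, 10389 in Endo-like, 2938 in Micro-like, 2444 in Oligo-like, 2338 in OPC-like, 2387 in Gran-like, 2599 in InN-like, 2348 in Pyra-like, 11185 in low-depth and 3038 in all nuclei, and the ratio of ALP over control 1.06 in Gran-like and 1.03 in Pyra-like nuclei. With the most abundant feature left out of the total, chosen after the data were seen, the level was 3036 in Astro-like, 2512 in Micro-like, 2201 in Oligo-like, 1968 in OPC-like, 1862 in Gran-like, 2534 in InN-like, 2143 in Pyra-like and 2692 in all nuclei, and the ratio 1.13 in Oligo-like, 1.35 in InN-like and 1.41 in Pyra-like nuclei. With no upper limit on genes the level was 1394 in Pyra-like and 1782 in all nuclei and the ratio 1.45 in Gran-like nuclei, and with members allowed among the variable genes it was 2213 in Micro-like nuclei. The cause of these shifts was not tested beyond the change of total or feature set itself. At resolution 1 no cluster was named Astro-like, so that class has no value there. Depth limits Endo-like nuclei most, with 22 members tested from 500 nuclei.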

Other observations

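Several subunits were listed at 0 under their plain symbol while a feature named as a copy held UMIs. The copies described here were picked from those with many UMIs after their values were seen, and whether they stand for the subunit is not known. COX6B1li6, COX5Ali2, ATP5MC2li1 and NDUFB9li1 had the class pattern of most plain members. COX6B1li6 was at 447 ± 142 CPM in Endo-like nuclei (SD, n = 6 libraries), 854 ± 360 CPM in OLFM1-led nuclei and 37.6 ± 10.3 CPM in Pyra-like nuclei. SDHAli1, named after the flavoprotein of complex II, had a flatter range, from 35.1 ± 7.32 CPM in OPC-like to 82.7 ± 18.2 CPM in Endo-like nuclei. NDUFV2li1, named after the flavoprotein-arm core subunit of complex I, was at 56.0 ± 22.7 CPM in Gran-like nuclei and at 21.2 ± 21.8 CPM in Endo-like nuclei.

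Between the groups none of these copies was called. NDUFV2li1 had a log2 below 0 in each of the 7 named classes where it was tested, from -0.39 in Astro-like to -0.97 in InN-like nuclei, where edgeR's quasi-likelihood test gave an adjusted p of 0.150. In Gran-like nuclei it was at 58.1, 56.4 and 101 TMM-scaled CPM in controls and at 38.0, 48.1 and 46.5 in ALP (log2 -0.72, adjusted p = 0.159, edgeR). The groups did not overlap there or in Pyra-like nuclei, and they overlapped in the other 5 classes, as in OPC-like nuclei with 67.3, 41.0 and 104 in controls and 45.5, 45.5 and 46.7 in ALP. ATP5MC2li1 was at 30.6, 23.5 and 15.3 in control and 48.8, 51.0 and 52.2 in ALP Gran-like nuclei (log2 1.06 ± 0.28, adjusted p = 0.0723, edgeR), without overlap. COX5Ali2 was at 37.7, 37.6 and 36.6 in control and 62.7, 54.3 and 59.0 in ALP InN-like nuclei (log2 0.65 ± 0.17, adjusted p = 0.0775, edgeR), also without overlap.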
